A study of Mus musculus with 6 samples.

Results

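The genes described here are 7 adhesion molecules that macrophages, other leukocytes and endothelial cells carry on their surface: Icam1, Icam2, Vcam1, Cd44, Selplg, Cd47 and Pecam1. They were chosen by gene symbol, each was found once among the 25124 genes of the deposited expression table, and all 7 also stood in the authors' table of differential expression. Poly(A) RNA had been sequenced from RAW264.7 cells, a macrophage line made from a mouse tumour, in 3 samples labelled M1 and 3 labelled M0. The M1 samples were treated with 100 ng/ml LPS (lipopolysaccharide, from the outer membrane of bacteria) together with 50 ng/ml interferon-γ, and the M0 samples with neither. Cells of both groups carried a Cas9 plasmid with no guide RNA, as the control line for an E4BP4 knockout, and grew in 25 mM glucose. The length of treatment, and whether the control line was a single clone, are not given in the sources used here. Nothing in the labels says that the 3 samples of a group were separate cultures, so p-values rest only on how far these samples differed, and that spread may be technical.

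ICAM-1, ICAM-2 and VCAM-1 are immunoglobulin-type proteins that integrins on another cell grip: LFA-1 holds ICAM-1 and ICAM-2, Mac-1 holds ICAM-1, and VLA-4 holds VCAM-1. PSGL-1, the product of Selplg, lets leukocytes roll on selectins once enzymes have added sugars and sulphate to it, and CD44 binds the matrix sugar hyaluronan. CD47 is read by SIRPA on phagocytes as a signal not to engulf, and PECAM-1 binds itself across the junctions between cells. On activated endothelium ICAM-1 and VCAM-1 are classic products of inflammatory signalling through NF-κB.

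Each library had between 15615639 and 20283180 reads assigned to genes, and values are in TPM, which scales reads by the length of the transcript and by the library. A gene was tested if it had at least 1 TPM in at least 3 samples, which left 11297 genes. The test was limma-trend on log2(TPM + 1) with Benjamini-Hochberg adjustment over all of them, and a gene was called at an adjusted p under 0.05. Taken over all tested genes, the log2 fold change of M1 over M0 had a median of -0.31 on the TPM scale. The changes of the 6 adhesion genes that could be tested are therefore also given after a rescaling by median-of-ratios factors, which brought that median to 0.003. Every named partner gene that is said to have risen or fallen was called in the same direction after rescaling. All 9 macrophage markers on a list that included Csf1r, Cd68 and Lyz2 passed the filter, with sums of 2614 to 2661 TPM in M1 and 2864 to 3101 TPM in M0. Of these markers 4 were called higher and 4 lower in M1, beside 18.7% and 61.5% of all tested genes. After rescaling 5 were higher and 3 lower, beside 36.9% and 36.6%. Csf1r, Lyz2, Itgam and Cd68 were lower in TPM, and Cd68 was not called after rescaling. Adgre1, Fcgr1, Mertk and Spi1 were higher on both scales, and Cd14 only after rescaling. Adgre1 (F4/80), with the largest fold of the 9, had 67.6 ± 1.13 TPM in M1 and 2.73 ± 0.51 TPM in M0 (SD, n = 3 in each group, as in all following means). Csf1r had 176 ± 16.2 TPM in M1 and 248 ± 7.70 TPM in M0. None of 8 lymphocyte markers passed the filter, and of 5 granulocyte markers S100a8 and Cebpe did, with S100a9 and Mpo at 0 in all samples. The granulocyte markers summed to 40.9 to 43.9 TPM in M1 and 48.9 to 57.8 TPM in M0. Most of that was Cebpe, with 38.5 ± 1.28 TPM in M1 and 47.1 ± 4.25 TPM in M0.

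Of the 7 genes, 5 had at least 1 TPM in every sample of both groups, and all 5 were called, 3 higher and 2 lower in M1. Vcam1 passed the filter only through its M1 values, so its call counts for nothing here, and Pecam1 was under the filter in both groups. Over all tested genes 80.2% were called, 18.7% higher and 61.5% lower. After rescaling the same 5 genes were called in the same directions, against 73.5% of all genes, 36.9% higher and 36.6% lower. Icam1, Cd47 and Cd44 were higher in M1, and Icam2 and Selplg were lower. In none of the 7 genes did the 3 M1 values overlap the 3 M0 values. The share of all genes without overlap was not counted, so this does not set the 7 genes apart. Vcam1 and Pecam1 had few reads in M0, 1 and 23 over 3 libraries. RNA was measured in bulk, so a change in the number of cells that carry a transcript and a change per cell cannot be told apart.

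**Figure D1:**
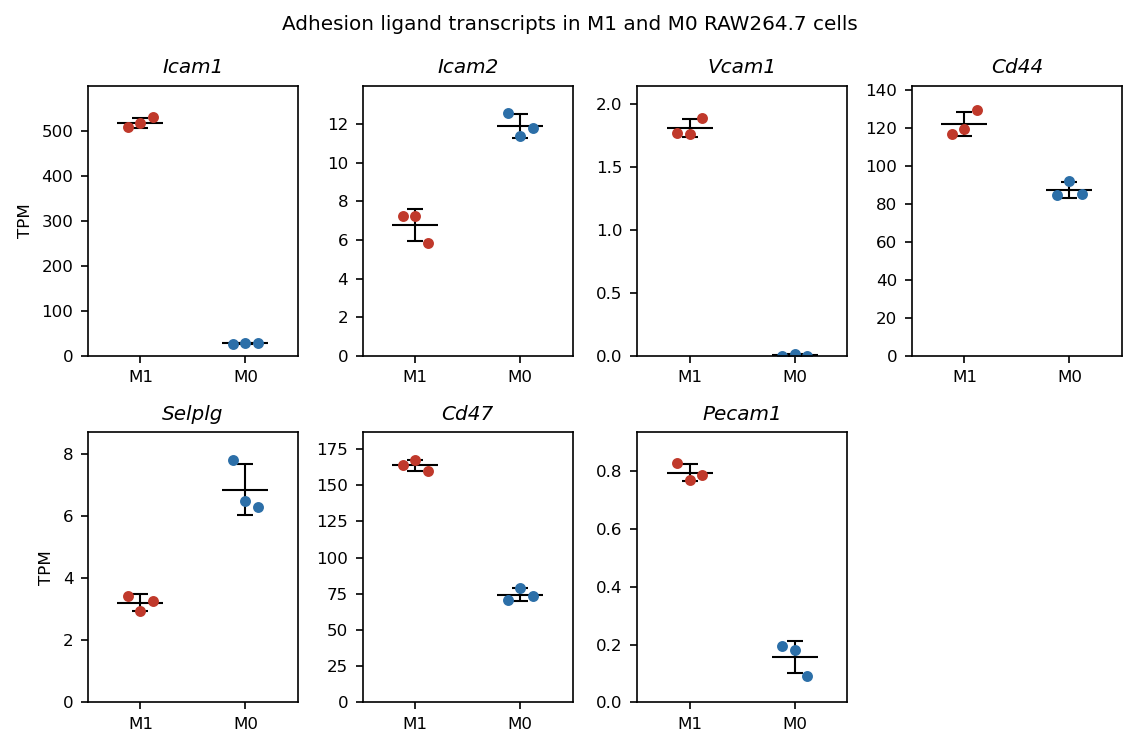
TPM of each of the 7 genes (vertical axis, from 0, with its own range per panel) in the 3 M1 and the 3 M0 samples; points are samples, the long bar is the mean and the whisker the SD. M1 points lie above M0 points for Icam1, Vcam1, Cd44, Cd47 and Pecam1 and below them for Icam2 and Selplg.

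Icam1, the ligand of LFA-1 and Mac-1 (NM_010493, mm10 chromosome 9, 21015940 to 21028814, plus strand, 7 exons), had 507, 516 and 530 TPM in M1 replicates 1 to 3, against 26.8, 29.7 and 28.2 TPM in M0 replicates 1 to 3. All 3 M1 samples stood far above all 3 M0 samples, and the spread within each group was small beside the gap. The log2 fold change was 4.15 (SE 0.05, limma adjusted p = 2.5e-14) on the TPM scale and 4.49 (SE 0.04) after rescaling. Among all genes it was 171st to 186th by TPM in the M1 samples and 3707th to 3920th in the M0 samples. By fitted increase it was 92nd of the tested genes. GENCODE M21 places an antisense transcript, Gm47079, over 508 bases at the end of the gene, and the sources used here do not say if reads were counted by strand.

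The RefSeq promoter table (GRCm38.p6) held 3 of the 7 genes, Icam1, Cd44 and Cd47, all higher in M1. The 250 bases before each RefSeq start are shown because these 3 genes moved in the same direction by very different amounts. They were searched with the first 50 bases of the gene, on both strands. Capitals mark matches to NF-κB and interferon-γ response (GAS) patterns, and lower case is the rest.
Icam1, chr9:21015690-21015939, plus strand: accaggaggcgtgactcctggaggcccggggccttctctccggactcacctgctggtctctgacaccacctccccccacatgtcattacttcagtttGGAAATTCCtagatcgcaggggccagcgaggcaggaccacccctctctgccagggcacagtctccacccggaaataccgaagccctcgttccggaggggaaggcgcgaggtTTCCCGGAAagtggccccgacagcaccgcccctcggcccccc
Cd44, chr2:102901666-102901915, minus strand: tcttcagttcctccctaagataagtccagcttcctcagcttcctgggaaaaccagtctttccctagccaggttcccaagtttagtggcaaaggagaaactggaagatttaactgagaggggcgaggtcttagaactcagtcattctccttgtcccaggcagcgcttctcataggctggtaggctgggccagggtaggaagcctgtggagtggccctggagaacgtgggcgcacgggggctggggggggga
Cd47, first of its starts in the table, chr16:49855404-49855653, plus strand: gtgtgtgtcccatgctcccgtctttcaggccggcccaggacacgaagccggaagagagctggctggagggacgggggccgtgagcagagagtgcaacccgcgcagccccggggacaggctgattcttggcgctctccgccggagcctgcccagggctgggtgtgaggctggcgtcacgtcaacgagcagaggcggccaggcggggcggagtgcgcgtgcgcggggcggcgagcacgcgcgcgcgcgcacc

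The Icam1 promoter held GGAAATTCC at -153 to -145, counted from the RefSeq start, which matched the NF-κB core pattern GGANNTTCC on both strands. That pattern was chosen after this sequence had been seen, and 4.26% of the 32851 promoters in the table held it. TTCCCGGAA at -42 to -34 matched the GAS pattern TTCNNNGAA, which 8.3% of the promoters held. Cd44 and Cd47 had no match to either pattern in this window. None of the 3 genes matched the NF-κB consensus (8.46% of promoters), the interferon-stimulated response element (3.44%), the AP-1 pattern TGANTCA (7.81%) or the CAAT box CCAAT (37.4%). The SP1 pattern GGGCGG stood in all 3 promoters and in 35.7% of the table, and the ETS pattern AGGAAG in Cd44 and in 35.4%. A TATA box, TATAAA, was found in Icam1 of the 3 genes and in 13.6% of the table. It lay 32 to 27 bases before the Icam1 start in GENCODE M21, which is 45 bases downstream of the RefSeq start. A match describes letters only and was not tested for binding.

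Icam2, a second ligand of LFA-1 (NM_010494, chromosome 11, 106377656 to 106382781, minus strand, 4 exons), had 7.24, 7.24 and 5.84 TPM in M1 samples, against 12.6, 11.4 and 11.8 TPM in M0 samples. Every M1 value was under every M0 value, 1.76-fold lower on average. The log2 fold change was -0.74 (SE 0.08, limma adjusted p = 7.5e-06), and -0.42 (SE 0.09, adjusted p = 0.0016) after rescaling. The values rested on 428 reads in M1 and 672 in M0 over 3 libraries each. The ratio of Icam1 to Icam2 TPM, which no library scaling can alter, was 70.1, 71.3 and 90.6 in M1 samples and 2.13, 2.61 and 2.40 in M0 samples, a 32.5-fold difference of means.

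The relatives of Icam1 beside it on chromosome 9 were expressed at low levels in both groups. Icam4, which encodes a ligand best known from red blood cells and begins 617 bases after the end of Icam1 on the same strand, had 0.67 ± 0.17 TPM in M1 and 1.86 ± 0.21 TPM in M0. These values stood for 30 reads in M1 and 74 in M0, and the gene passed the filter only through M0, so no test is given. Icam5, known as a neuronal adhesion molecule, lies 1441 bases further on and stayed under the filter, with 57 reads in M1 and 16 in M0.

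Vcam1, the ligand of VLA-4 (NM_011693, chromosome 3, 116110020 to 116129688, minus strand, 9 exons), had 1.78, 1.77 and 1.89 TPM in M1 samples, against 0, 0.019 and 0 TPM in M0 samples. These values stood for 101, 103 and 98 reads in M1 and 0, 1 and 0 reads in M0. The transcript was therefore at the edge of detection in M0 and low but present in every M1 library. Scaled by library reads, the M1 to M0 read ratio was 267, with an exact binomial 95% interval of 47.5 to 10569 that covers counting error only. Since the gene passed the filter only through M1, where it is high, no p is given for it. Its fitted log2 fold change of 1.48 (1.60 after rescaling) depends on the pseudocount of 1 and was 4.17 with a pseudocount of 0.1. In M1 the Vcam1 level was 0.0035 ± 7.6e-05 of the Icam1 level by TPM. An antisense transcript, Gm43109, overlaps 1238 bases at the start of the gene in GENCODE M21. Vcam1 is also known from fibroblasts. None of 7 fibroblast and epithelial markers passed the filter and Krt8 and Krt18 were at 0 in all samples, but the markers summed to 1.24 to 1.52 TPM in M1 and 0.782 to 1.15 TPM in M0. Dcn, a marker among them, had 32, 31 and 20 reads in M1 samples, against 0, 1 and 0 reads in M0 samples. The other markers with any reads had fewer in M1, but Pdgfra alone had groups that did not overlap. Over 3 libraries each, Pdgfra, Col1a1, Col1a2 and Epcam had 35, 8, 3 and 2 reads in M1 and 60, 20, 5 and 3 in M0. The part of Dcn in the Vcam1 result was not tested.

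Cd44, the hyaluronan receptor (NM_001039151, chromosome 2, 102811142 to 102901665, minus strand, 9 exons in the transcript used), had 117, 120 and 129 TPM in M1 samples, against 84.8, 92.2 and 85.6 TPM in M0 samples. The groups were separate and the difference was modest, 1.40-fold. The log2 fold change was 0.48 (SE 0.05, limma adjusted p = 6.4e-06), and 0.82 (SE 0.05, adjusted p = 8.2e-08) after rescaling. CD44 is made in many spliced forms, and each of the authors' tables gives a single one, of 4397 bases in the expression table and 5616 bases in the comparison table. In the authors' deposited table the log2 fold change was 0.85, close to the 0.82 found here after rescaling. A part of the differing transcript in that value was not tested. The forms themselves were not analysed here.

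Selplg, which encodes PSGL-1 (NM_009151, chromosome 5, 113817798 to 113830501, minus strand, 2 exons), had 3.44, 2.93 and 3.27 TPM in M1 samples, against 7.79, 6.47 and 6.27 TPM in M0 samples. All M1 values were lower, 2.13-fold on average, from 411 reads in M1 and 790 in M0. Its log2 fold change of -0.89 (SE 0.09, limma adjusted p = 2.6e-06) was further below 0 than that of Icam2 on this scale, and after rescaling it was -0.61 (SE 0.09, adjusted p = 0.00015); the difference between the 2 genes was not tested.

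Cd47, the ligand of SIRPA (NM_010581, chromosome 16, 49855654 to 49911683, plus strand, 10 exons), had 164, 168 and 160 TPM in M1 samples, against 70.4, 79.0 and 73.4 TPM in M0 samples. The M1 samples were 2.20-fold higher and did not overlap the M0 samples. The log2 fold change was 1.13 (SE 0.05, limma adjusted p = 2.7e-09), and 1.48 (SE 0.05) after rescaling. Cd47 was 616th to 643rd of all genes by TPM in M1 samples and 1377th to 1520th in M0 samples.

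Pecam1 (NM_001032378, chromosome 11, 106654213 to 106715281, minus strand, 14 exons) had 0.829, 0.772 and 0.788 TPM in M1 samples, against 0.196, 0.183 and 0.093 TPM in M0 samples. Every value lay under 1 TPM, so the gene was not tested. The M1 libraries held 45, 43 and 39 of its reads and the M0 libraries 10, 9 and 4. The read ratio of M1 to M0, scaled by library reads, was 4.88 (exact binomial 95% interval 3.11 to 7.97, counting error only). The authors' deposited table, which gives it as NM_008816, listed a log2 fold change of 2.71 with an adjusted p of 2.6e-09. PECAM-1 is best known from endothelium. Of 10 endothelial markers, Egfl7 alone passed the filter and Tie1 was at 0 in all samples, and the markers summed to 1.86 to 2.22 TPM in M1 and 3.34 to 3.93 TPM in M0. Vwf, a defining marker among them, was lower in M1, with 0.24 ± 0.04 TPM against 0.72 ± 0.04 TPM in M0. Icam2 lies 271431 bases away on the same strand of chromosome 11 and was lower in M1, opposite to Pecam1.

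**Figure D2:**
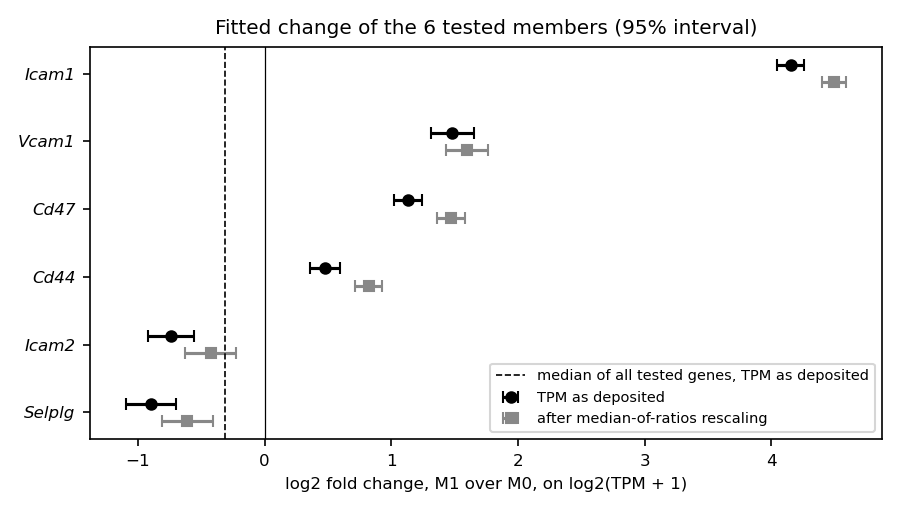
Fitted log2 fold change of M1 over M0 on the log2(TPM + 1) scale (horizontal axis) for the 6 tested genes, with 95% intervals; circles are TPM as deposited, squares are rescaled values, and the dashed line is the median of all tested genes at -0.31. Icam1 lies at 4.15, Vcam1, Cd47 and Cd44 between 0.48 and 1.48, and Icam2 and Selplg below 0 on both scales. Vcam1 passed the filter only through M1, so its interval is not read as a test.

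TPM is scaled by length, so levels can be set side by side within a sample. In every M1 sample the order was Icam1, Cd47, Cd44, Icam2, Selplg, Vcam1 and Pecam1, from highest to lowest. In every M0 sample it was Cd44, Cd47, Icam1, Icam2, Selplg, Pecam1 and Vcam1. Neighbours in these orders were separated in all 3 samples of a group. Icam1 made up 63.3%, 63.2% and 63.8% of the summed TPM of the 7 genes in M1 samples and 13.2%, 13.5% and 13.7% in M0 samples. Cd44 made up 14.6% to 15.6% in M1 and 41.7% to 42.1% in M0. The sum of the 7 genes was 816 ± 14.6 TPM in M1 and 209 ± 8.75 TPM in M0, and without Icam1 it was 298 ± 3.74 TPM in M1 and 181 ± 7.42 TPM in M0. Although Cd44 was higher in M1 in TPM, its share was lower there.

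**Figure D3:**
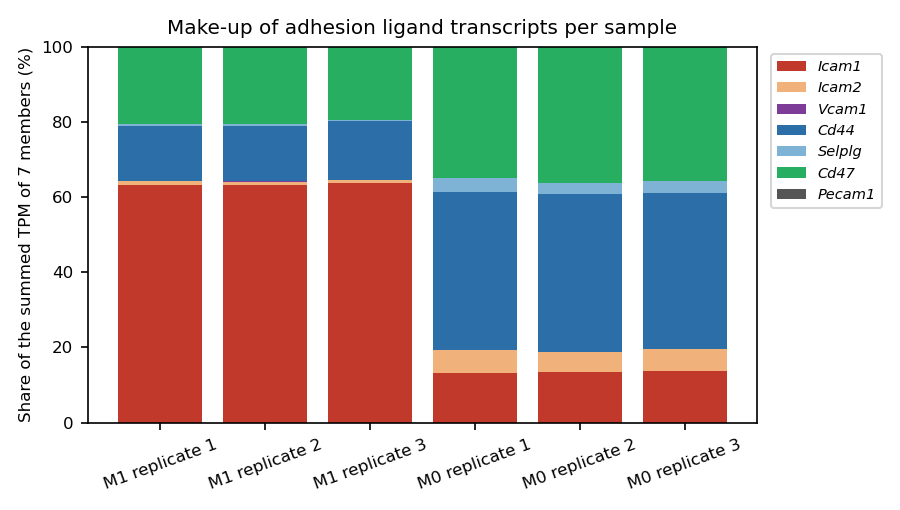
Share of the summed TPM of the 7 genes taken by each gene (vertical axis, percent) in the 3 M1 and 3 M0 samples (bars). Icam1 takes 63.2% to 63.8% in M1 samples, and Cd44 takes the largest share, 41.7% to 42.1%, in M0 samples.

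The 5 genes whose log2(TPM + 1) profile over the 6 samples lay closest to that of Icam1, by Euclidean distance after centring, were Tap1, Slc7a2, Ifi44, Cfb and Apol9a, at distances of 0.13 to 0.20 log2 units. Tap1, a subunit of the peptide transporter of antigen presentation, had 306 ± 8.37 TPM in M1 and 16.6 ± 0.67 TPM in M0. Cfb, complement factor B, had 19.6 ± 0.26 TPM in M1 and 0.18 ± 0.05 TPM in M0. With 2 groups of close samples, this distance mostly restates the difference between M1 and M0, and it was not tested. Closeness on this scale also depends on the pseudocount: Cfb and Apol9a, both near 0 in M0, differed 109-fold and 175-fold in mean TPM, against 18.4-fold for Icam1. Cfb and Apol9a passed the filter only through M1, where they are high, so their place among the 5 counts for nothing here.

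The other genes of each adhesion step were taken from lists of partners. Among 13 tested integrin chains and integrin activators, 5 rose and 8 fell (38.5% and 61.5%, beside 18.7% and 61.5% of all tested genes), with a median log2 fold change of -0.54 beside -0.31 for all tested genes. After rescaling 5 were higher, 7 lower and 1, Tln1, was not called (38.5% and 53.8%, beside 36.9% and 36.6% of all tested genes). No test set any of the lists apart from other genes. Itgal and Itga4, receptor chains for the ICAM and VCAM ligands, both rose. Itgal, the α chain of LFA-1, had 55.7, 54.7 and 61.9 TPM in M1 samples, against 15.6, 16.9 and 14.9 TPM in M0 samples (log2 fold change 1.80, SE 0.06, limma adjusted p = 3.9e-10). Itga4, the α chain of VLA-4, had 51.6, 51.0 and 61.0 TPM in M1 samples, against 14.9, 15.8 and 15.3 TPM in M0 samples (log2 fold change 1.76, SE 0.07, adjusted p = 8.9e-10). Itga5, a fibronectin receptor chain, rose 3.04-fold to 179 ± 11.2 TPM in M1.

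Their partner β chains differed less between groups in TPM. Itgb2, the shared β chain of LFA-1 and Mac-1, had 114 ± 3.52 TPM in M1 and 166 ± 8.42 TPM in M0 (log2 fold change -0.54, limma adjusted p = 1.2e-06; -0.20 after rescaling, adjusted p = 0.0024). Itgam, the α chain of Mac-1, fell to 122 ± 9.82 TPM in M1, against 184 ± 5.61 TPM in M0 (log2 fold change -0.59, and -0.24 after rescaling). Itgb1, the β chain of VLA-4, was close in both groups, with 386 ± 2.95 TPM in M1 and 349.6 ± 14.4 TPM in M0, and was called higher (log2 fold change 0.14, adjusted p = 0.011; 0.49 after rescaling). In M1 samples Icam1 had 4.51 to 4.59 times the TPM of Itgb2, against 0.169 to 0.170 times in M0 samples. Among activators inside the cell, Apbb1ip and Rassf5, which link Rap1 to integrins, fell to 13.7 ± 1.05 and 10.1 ± 0.78 TPM in M1, against 46.8 ± 2.55 and 30.5 ± 2.04 TPM in M0, and Fermt3, which encodes kindlin-3, was 1.82-fold lower. The Rap1 genes themselves, named after their values were seen, went opposite ways: Rap1b had 734 ± 12.2 TPM in M1 and 347 ± 2.71 TPM in M0, and Rap1a had 51.7 ± 0.90 TPM in M1 and 85.1 ± 3.28 TPM in M0.

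**Figure D4:**
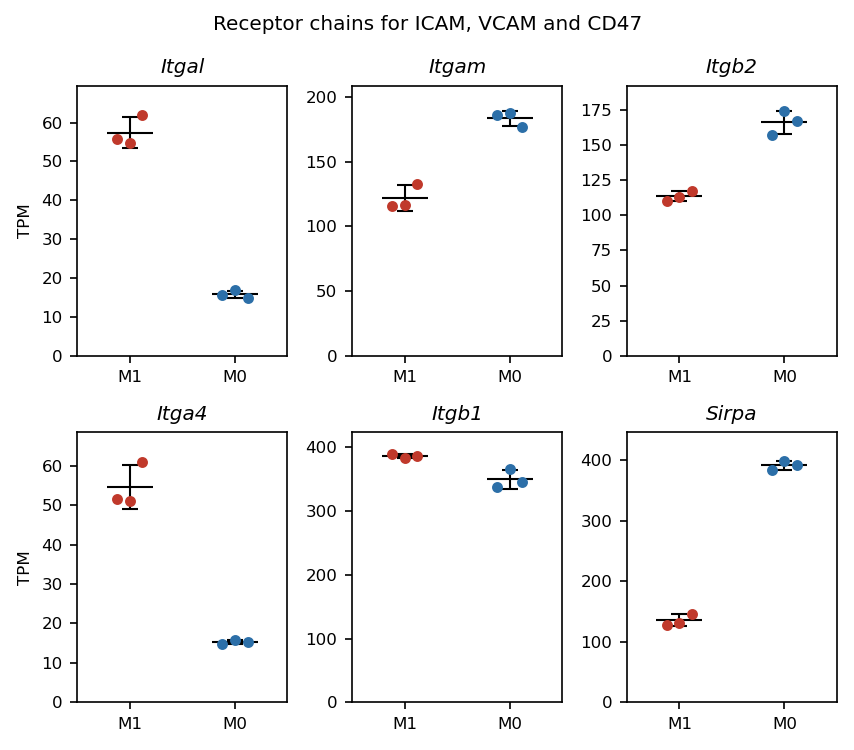
TPM (vertical axis, from 0) of the receptor chains for ICAM, VCAM and CD47 in the 3 M1 and 3 M0 samples; points are samples, long bars means and whiskers SD. Itgal, Itga4 and Itgb1 points are higher in M1, and Itgam, Itgb2 and Sirpa points are lower.

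Another list held genes that make PSGL-1 able to bind selectins. Of 11 tested genes on the list of selectins and PSGL-1 enzymes, 2 rose and 7 fell (18.2% and 63.6%, beside 18.7% and 61.5% of all tested genes), with a median log2 fold change of -0.42. These shares were near those of all genes. After rescaling 4 were higher and 5 lower (36.4% and 45.5%, beside 36.9% and 36.6%). The sulphotransferases, which add the sulphate that P-selectin needs, split: Tpst1 rose to 78.1 ± 0.25 TPM in M1, against 45.1 ± 1.16 TPM in M0, while Tpst2 fell to 19.6 ± 0.76 TPM, against 42.7 ± 2.07 TPM. The sialyltransferase St3gal3 rose 2.25-fold to 19.2 ± 0.42 TPM, whereas St3gal4 and St3gal6 fell 1.72-fold and 2.13-fold. Both low genes that come next were chosen for naming after their values were seen. Gcnt1, which starts the branched O-glycan that carries selectin ligands, had 0.11 ± 0.04 TPM in M1 and 2.59 ± 0.22 TPM in M0 (24 and 520 reads). Fut7, the fucosyltransferase of selectin ligands, had 0.95 ± 0.17 TPM in M1 and 2.28 ± 0.36 TPM in M0. Both passed the filter only through M0, so no test is given for them, and without them 2 of 9 genes of the list were called higher and 5 lower. C1galt1, which builds the core O-glycan, had 35.5 ± 1.03 TPM in M1 and 38.5 TPM in M0 and was not called (limma adjusted p = 0.076). Rescaled values put it higher in M1 (log2 fold change 0.23), and on the TPM scale it was called lower without M1 replicate 3 (adjusted p = 0.047) or M0 replicate 1 (0.027). Selp and Sele, which encode P-selectin and E-selectin, were under the filter.

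Among 7 tested genes around hyaluronan and CD44, 3 rose and 4 fell on both scales (42.9% and 57.1%, beside 18.7% and 61.5% of all tested genes in TPM and 36.9% and 36.6% after rescaling). Their median log2 fold change was -0.51. The hyaluronidases Hyal1 and Hyal2 fell, Hyal1 7.10-fold to 1.78 ± 0.15 TPM in M1 and Hyal2 2.47-fold to 8.18 ± 0.16 TPM. Hmmr, another hyaluronan receptor that also serves the mitotic spindle, fell 1.69-fold to 43.5 ± 0.85 TPM. Lgals9, which encodes galectin-9, a lectin that binds CD44, rose 5.07-fold to 180.2 ± 0.77 TPM, and Srgn, a proteoglycan that binds CD44, rose 2.13-fold to 206 TPM. The rise of Cemip2, a cell-surface hyaluronidase (log2 fold change 0.17, limma adjusted p = 0.037), was lost when M1 replicate 2 (adjusted p = 0.081), M1 replicate 3 (0.099), M0 replicate 1 (0.12) or M0 replicate 2 (0.075) was left out. It was also lost with no filter on low values (limma adjusted p = 0.054). The hyaluronan synthases Has1, Has2 and Has3 were under the filter.

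Another list held genes of CD47 partners, of signalling below them and of CD47 processing. Of its 7 tested genes, 6 fell and 1 was not called on the TPM scale (85.7% lower, beside 61.5% of all tested genes). Their median log2 fold change was -0.59. After rescaling 1 was higher and 5 were lower (14.3% and 71.4%, beside 36.9% and 36.6%). Sirpb1a, counted as lower on both scales, passed the filter only through M0, and without it 5 of 6 genes were called lower in TPM. Thbs1, which encodes thrombospondin-1, a CD47 ligand, was under the filter and higher in M1, with 0.239 ± 0.048 TPM in M1 and 0.043 ± 0.012 TPM in M0 (68 and 11 reads), and was named after its values were seen. Sirpa, the CD47 receptor, had 128, 132 and 147 TPM in M1 samples, against 385, 399 and 393 TPM in M0 samples (log2 fold change -1.53, SE 0.05, limma adjusted p = 3.4e-10; -1.18 after rescaling). The ratio of Cd47 to Sirpa TPM was 1.27, 1.27 and 1.09 in M1 samples and 0.183, 0.198 and 0.187 in M0 samples. Sirpa has similar copies in the Sirpb1 genes, so its split from them is uncertain. Lrp1, an uptake receptor that recognises calreticulin, fell 2.11-fold, and Qpctl, the enzyme that modifies the end of CD47 so that SIRPA can bind, fell 1.58-fold. Ptpn11, a phosphatase that SIRPA recruits, had 24.5 ± 2.40 TPM in M1 and 26.7 ± 2.05 TPM in M0 and was not called. It was the 1 gene of the list higher after rescaling (log2 fold change 0.22, limma adjusted p = 0.015). On the TPM scale it was called lower without M1 replicate 3 (adjusted p = 0.019).

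Other genes encode proteins that tie the tails of ICAM-1, CD44 and PSGL-1 to actin. Of 8 tested, 2 rose, 4 fell and 2 were not called (25% higher and 50% lower, beside 18.7% and 61.5% of all tested genes), with a median log2 fold change of -0.35. After rescaling 3 were higher and 4 lower (37.5% and 50%, beside 36.9% and 36.6%). Ezrin (Ezr) and moesin (Msn), the linkers that bind these tails, rose 1.47-fold and 1.19-fold, to 91.9 ± 6.60 and 466 ± 19.7 TPM in M1. The relative Nf2 (merlin) fell 1.62-fold, the scaffold Slc9a3r1 1.88-fold and the α-actinin Actn1 1.47-fold. Flna, filamin A, had 429.8 ± 45.8 TPM in M1 and 485 ± 39.8 TPM in M0 and was not called (log2 fold change -0.17, limma adjusted p = 0.072). After rescaling its log2 fold change was 0.17 (adjusted p = 0.056), and on the TPM scale it was called lower without M1 replicate 3 (adjusted p = 0.0036) or M0 replicate 1 (0.016).

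Of 7 tested genes among other adhesion molecules, 2 rose and 5 fell (28.6% and 71.4%, beside 18.7% and 61.5% of all tested genes), with a median log2 fold change of -0.54. After rescaling 2 were higher and 4 lower (28.6% and 57.1%, beside 36.9% and 36.6%). Icam4, counted as lower on both scales, passed the filter only through M0, and without it 2 of 6 genes were called higher and 4 lower in TPM. Ninj1, an adhesion molecule that also ruptures the membrane of dying cells, rose 2.68-fold to 438 ± 19.9 TPM in M1, and Alcam, the ligand of CD6, rose 1.27-fold to 66.5 ± 2.19 TPM. Cd81 and Cd9, tetraspanins that organise adhesion molecules in the membrane, fell 2.38-fold and 1.46-fold, and Cd99l2, which serves passage through junctions, fell 1.97-fold. Of 7 tested genes on the list of sheddases, 2 rose and 4 fell (28.6% and 57.1%, beside 18.7% and 61.5% of all tested genes), with a median log2 fold change of -0.59. After rescaling 3 were higher and 4 lower (42.9% and 57.1%, beside 36.9% and 36.6%). Adam17, which cuts several adhesion molecules off the surface, rose 1.29-fold to 159 ± 7.67 TPM, and its partner Rhbdf2, which brings it to the surface, rose 3.21-fold to 98.6 ± 4.58 TPM. Adam8, Mmp9 and Adam15 fell 3.32-fold, 1.83-fold and 1.60-fold. Adam9 had 89.8 ± 6.29 TPM in M1 and 97.9 ± 4.67 TPM in M0 and was not called (limma adjusted p = 0.070). Rescaling put it higher (log2 fold change 0.22), and on the TPM scale it was called lower without M1 replicate 3 (adjusted p = 0.0056) or M0 replicate 1 (0.028).

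**Figure D5:**
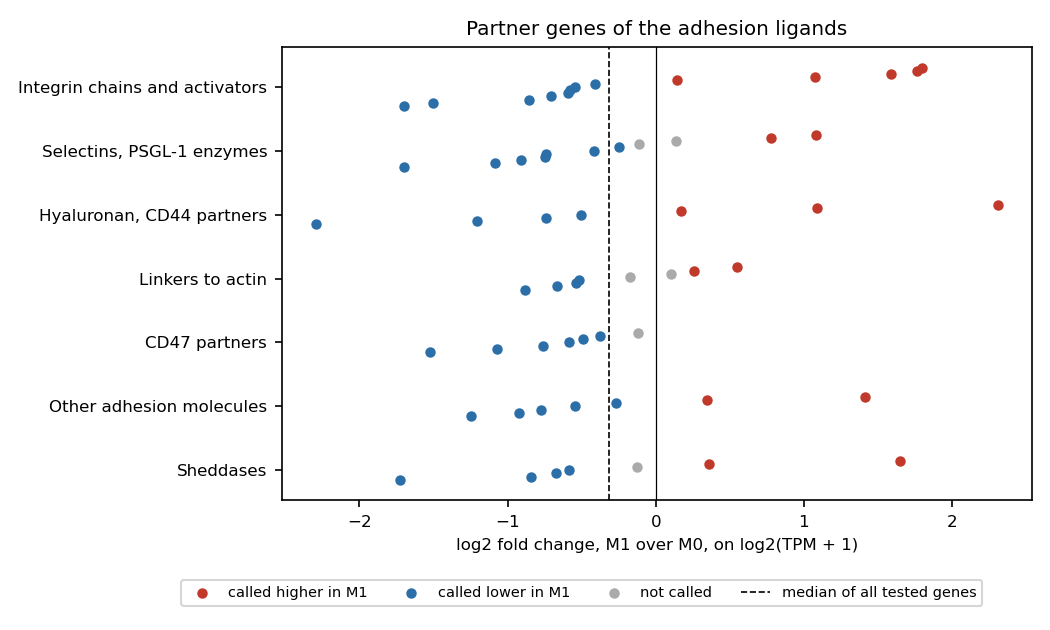
Fitted log2 fold change of M1 over M0 on the log2(TPM + 1) scale (horizontal axis) for each tested gene (point) of the 7 partner lists (down the page); red points are called higher and blue points lower in M1, grey points are not called, and the dashed line is the median of all tested genes at -0.31. Points of every list lie on both sides of the dashed line.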

How the data were processed

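RNA was measured in 3 M1 and 3 M0 samples, grouped by their labels. Per the submitters' processing notes, bcl2fastq, STAR 2.7.5a, HOMER 4.11.1, DESeq2 and mm10 were used, with no role or order given. Per the file headers, the authors deposited TPM for each gene in each sample. A second table holds, per the file headers, log2 values per sample, whose transform is not stated, beside the comparison the authors made: its p-value, the adjusted one and a log2 fold change. Its header reads M0 vs. M1, and its signs are those of M1 minus M0.

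Genes that reached 1 TPM in 3 or more samples were fitted with limma 3.58.1 (R 4.3.3; trend, robust) on log2(TPM + 1), with group as the only term. Folds divide mean TPM values. An exact permutation test of 3 against 3 samples was not run, since its smallest p is 0.10. TPM times transcript length was a whole multiple of 1 value per library, within 0.1, for 100% of the values above 0 whose rounding error is under 0.1 of a read, which gave the reads behind each value. Reads of replicates differed beyond counting noise in every pair, with chi-square over its degrees of freedom between 1.54 and 7.55, and no sample was merged with another. Overlapping and antisense genes are uncertain. The fit was also run on simulated counts, with an outcome that is not reported here. Those counts lacked the shift of the median seen in these data, so they do not show how the fit behaves under it.

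All 7 genes are described whatever their values. In each partner list, up to 3 genes called higher and 3 called lower, with the largest changes and a mean of at least 5 TPM in either group, were named with the most abundant one not called, and 9 receptor and neighbour genes whatever their values, of which 1 is not reported here; Gcnt1, Fut7, Rap1a, Rap1b, Thbs1 and Dcn, the markers and the genes under the filter were named after their values were seen. Genes, lists and motifs were chosen with earlier results of these data known. The alternatives were a rescaling, another pseudocount, other filters, limma-voom on the recovered reads, a replicate block, leaving out each sample, and the authors' table.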

Additional observations from a re-analysis of the deposited data

How the results depend on the processing

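The 5 genes at 1 TPM in both groups kept their direction under every alternative, the authors' deposited table included. They also kept their calls, but with the 5 TPM filter Selplg passed only through M0, where it is high. That call of Selplg is therefore not counted. Their log2 fold changes were 4.12 to 4.56 for Icam1, 1.09 to 1.51 for Cd47 and 0.43 to 0.85 for Cd44. Those of Icam2 and Selplg were -0.84 to -0.42 and -1.11 to -0.61. Vcam1 kept its direction, at 1.46 to 8.34, but its calls are not counted, since it passed the filter only through M1. Vcam1 had no value with the 5 TPM filter. Pecam1, with an untested difference of 0.64, was called where a test could be made, at 0.64 with no filter, 2.28 with limma-voom and 2.71 in the authors' deposited table. After rescaling, 4173 of all genes were called higher and 4131 lower, against 2111 and 6944 on the TPM scale. In the list of selectins and PSGL-1 enzymes, 4 were called higher after rescaling, and 4 were called lower with the 5 TPM filter, which tests fewer genes. In the list of CD47 partners and CD47 processing, 1 was called higher after rescaling (Ptpn11), 1 with no filter and 1 with limma-voom (Thbs1 in both). Among other adhesion molecules 5 were called higher with no filter and 5 with limma-voom, which test more genes. Limma-voom also called C1galt1 (adjusted p = 0.023), Flna (0.0056), Ptpn11 (0.039) and Adam9 (0.011) lower. With the 5 TPM filter Flna was called lower too (limma adjusted p = 0.049). Leaving out 1 sample gave 1990 to 2076 higher and 6606 to 6997 lower calls. With the replicate block, 2143 were higher and 7016 lower, and no call of the 5 genes at 1 TPM in both groups changed. Of the named partners, Flna (limma adjusted p = 0.0094) and Adam9 (0.040) were called lower with it. The replicate numbers did not pair the samples (correlations of same-numbered deviations 0.07, -0.08 and 0.04), and not every sample correlated best with its own number. Depth limits Vcam1 and Pecam1 in M0, with 1 and 23 reads over 3 libraries.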
